A study of Gallus gallus with 28 samples.

Results

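Fatty acid uptake, binding and droplet genes were measured on a liver cDNA array in a fat and a lean line of chickens. The members were the 33 spots, of 1728 on the array, whose gene symbol in the platform annotation was FABP1, LBFABP, SLC27A2 or PNPLA3. The 3 numbers of a spot ID were taken as its printing block, column and row. Each cDNA clone was spotted 3 times within a block, so the 33 spots formed 11 of 576 printed positions. FABP1 (Entrez gene 374015) stood at 5 positions from 3 different cDNAs, SLC27A2 (426354) at 4 positions from 2 cDNAs, and LBFABP (395345) and PNPLA3 (418233) at 1 position each. All 4 symbols matched a current chicken gene entry in RefSeq. Positions are named here by their block, with the column added for block 13, which held 2 positions of SLC27A2. The cDNAs of a gene are called A, B and C.

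The samples were 5 fat line pools (pools 6 to 10) and 5 lean line pools (pools 1 to 5), each of liver RNA from 4 chickens. Pools 3 and 8 had 2 arrays and the other pools 3, which gave 14 arrays per line. The sample carried Cy5 and a common reference of all 10 pools carried Cy3. Each value is thus a log ratio to that reference, taken here as log2, and not a level of the transcript. Since the arrays of a pool repeat 1 RNA, the pool is the replicate, and n counts pools. Diet, age, sex and the origin of the lines of the birds were not stated in the labels. In pooled whole liver, fewer cells of a type and less RNA per cell cannot be told apart.

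Liver takes up fatty acids, carries them through the cytosol on small binding proteins, couples them to coenzyme A and burns them, exports them in lipoproteins or stores them as triglyceride in lipid droplets. SLC27A2, also known as fatty acid transport protein FATP2, is an acyl-CoA synthetase for long and very long chains that also promotes fatty acid uptake. FABP1 is the liver fatty acid binding protein, an abundant cytosolic carrier. LBFABP, the liver basic fatty acid binding protein, is a relative of FABP1 found in livers of birds and fish that is also known to bind bile acids, and its gene entry lists FABP10 as another name. PNPLA3, or adiponutrin, is a lipid droplet protein with acylhydrolase activity, whose transcript in rodents increases on feeding. In birds most new fatty acids are made in the liver, which gives these genes a place between synthesis, storage and export.

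Across all arrays 36.7% of the spots had a value, from 450 to 741 spots per array. The members other than LBFABP had values at 68 to 81 of the 84 spots printed per position over the 28 arrays. A position entered the test if 3 or more pools per line had a value. That held for 297 positions, 110 genes and all 11 positions of the members. Differences are fat minus lean on the log2 scale, from limma on the pool values with Benjamini-Hochberg adjustment over all 297 positions. The direction of the deposited ratio is not stated, and sample over reference is the likely one by channel order. A reference made of all pools should give a mean linear ratio near 1. This mean lay nearer 1 as deposited at 3 of the 11 positions and nearer 1 with the sign turned at 8, a count that leaned toward the turned sign. Positions of a gene share arrays and RNA, so they are not independent, and only members were counted. Some gaps were small, as at LBFABP with 1.08 as deposited and 1.06 turned. This measure therefore did not settle the direction. The lowest Pearson r between any 2 arrays over all spots was -0.31, between a fat and a lean array. With the opposite direction each difference would have the opposite sign and the same p.

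The first comparison asked whether the transcripts of these genes differed between the lines. At PNPLA3 the fat pools lay lower than the lean pools on average, at all 5 positions of FABP1 the fat mean lay below the lean mean, and at all 4 positions of SLC27A2 it lay above. None of the 11 positions passed at an adjusted p under 0.05, as none of the 297 did (0%). At an unadjusted p under 0.05 there was 1 member position of 11, PNPLA3, against 9.43% of all tested positions (28 of 297), of which 5.05% were higher and 4.38% lower in the fat line. At the 10 positions with values in all pools the lines overlapped every time, where 2.59% of such positions (6 of 232) had lines that did not overlap. The positions of a gene were read on the same arrays from the same RNA, so their shared direction is not independent evidence. For orientation, 45.1% of all tested positions (134 of 297) had a difference below 0. The signs at FABP1 block 6 and SLC27A2 block 13 were not settled: block 6 turned to 0.21 with the median over arrays, column 4 to -0.00089 with printing block medians subtracted, a setting chosen after seeing the data, and column 5 to -0.18 with the second array of each pool only.

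**Figure D1:**
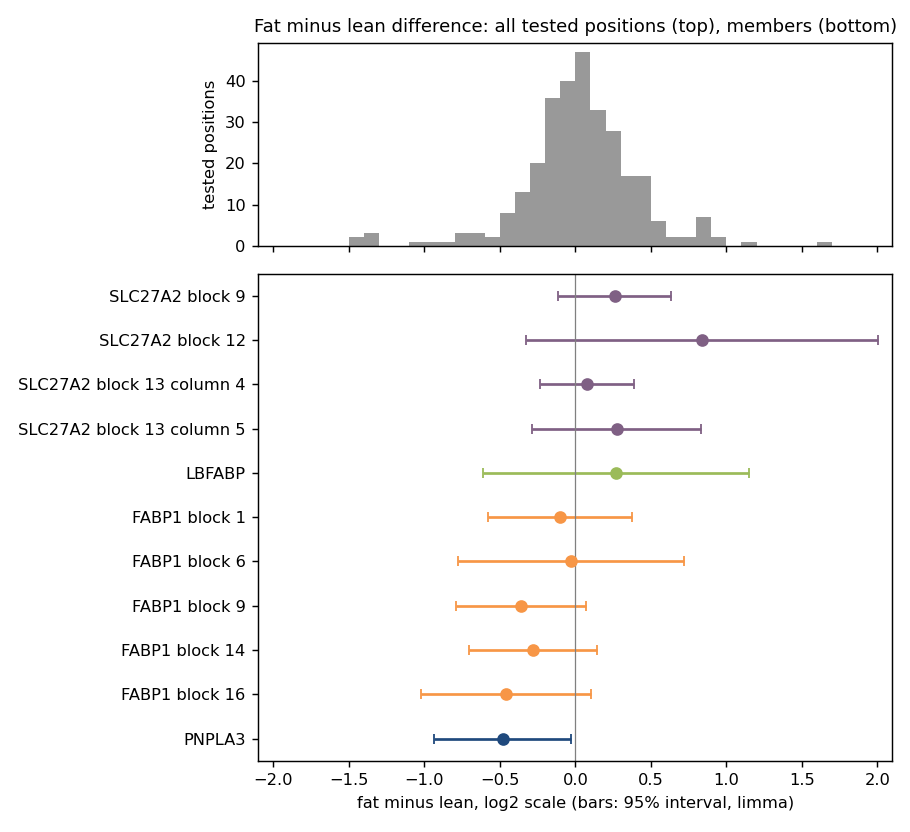
The upper panel counts all 297 tested positions by their fat minus lean difference on the log2 scale, and the lower panel gives each of the 11 member positions with its 95% interval from limma. The 4 SLC27A2 positions lie right of 0, the 5 FABP1 positions lie left of it, and PNPLA3 has the only interval of the 11 that leaves out 0, before adjustment.

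SLC27A2, at the uptake and activation step, was read by cDNA A in blocks 9 and 12 and by cDNA B at both positions of block 13. At block 9 the log2 ratios were -0.07, 0.32, 0.14, 0.27 and -0.12 in fat pools 6 to 10, against 0.04, -0.18, -0.68, 0.05 and 0.03 in lean pools 1 to 5. All 5 fat pools lay above the lean mean, and pool 3 was the lowest of all. The difference was 0.26 (standard error 0.17, 95% interval -0.11 to 0.63, limma adjusted p = 0.656). It was 0.13 without pool 3 and 0.016 on first arrays alone. At block 12, the same cDNA, the fat pools were at 1.19, 0.36, 0.73, 1.47 and -0.23 and the lean pools at -0.07, 0.89, -2.05, 0.0050 and 0.55. This position had the widest range of all members, with 4 fat pools above the lean mean and pool 3 again the lowest. Its difference of 0.84 had a standard error of 0.53 (95% interval -0.33 to 2.00, limma adjusted p = 0.656), and it was 0.36 without pool 3.

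The line differences at the cDNA B positions of SLC27A2 lay closer to each other than those at the cDNA A positions. At block 13 column 4 the fat pools were at 0.17, 0.33, 0.20, 0.27 and -0.19, against -0.04, -0.09, 0.12, 0.02 and 0.39 in the lean pools. The difference was 0.08 (standard error 0.14, 95% interval -0.23 to 0.39, limma adjusted p = 0.866), and the lines overlapped over nearly their whole range. Left out one at a time, pool 7 or pool 2 brought it to 0.03 and pool 10 to 0.16. At block 13 column 5 the fat pools were at 0.04, 0.29, 0.53, -0.06 and -0.08, against 0.16, -1.10, 0.10, 0.03 and 0.17 in the lean pools. Lean pool 2 stood apart, and the difference of 0.27 (standard error 0.25, limma adjusted p = 0.695) was 0.03 without it and 0.17 without pool 8.

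Averaged over its 4 positions, SLC27A2 was at 0.33, 0.33, 0.40, 0.48 and -0.15 in fat pools 6 to 10, against 0.02, -0.12, -0.63, 0.03 and 0.29 in lean pools 1 to 5. Fat pools 6 to 9 were higher than all 5 lean pools, while fat pool 10 was lower than 4 of them. The means were 0.28 ± 0.25 in the fat line and -0.08 ± 0.34 in the lean line (SD, n = 5 each). The difference was 0.36 (standard error 0.19, 95% interval -0.06 to 0.78, limma unadjusted p = 0.0840, adjusted p = 0.629 over 110 genes). Without pool 3 the difference was 0.23 (limma unadjusted p = 0.197, adjusted p = 0.681). With the median over the 4 positions in place of the mean it was 0.21 (limma unadjusted p = 0.197, adjusted p = 0.657). With block 12 left out, a setting chosen after seeing the data, it was 0.20 (limma unadjusted p = 0.216, adjusted p = 0.709). Quantile normalization gave 0.24 (limma unadjusted p = 0.167, adjusted p = 0.693). Other settings raised the difference, to 0.47 without pool 10 (limma unadjusted p = 0.0280, adjusted p = 0.374) and 0.45 without pool 5 (limma unadjusted p = 0.0403, adjusted p = 0.534). On first arrays alone it was 0.47 (limma unadjusted p = 0.0465, adjusted p = 0.425). On second arrays alone it was 0.36 (limma unadjusted p = 0.266, adjusted p = 0.588). With each pool left out, the limma unadjusted p was under 0.05 in 2 of 10 fits.

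**Figure D2:**
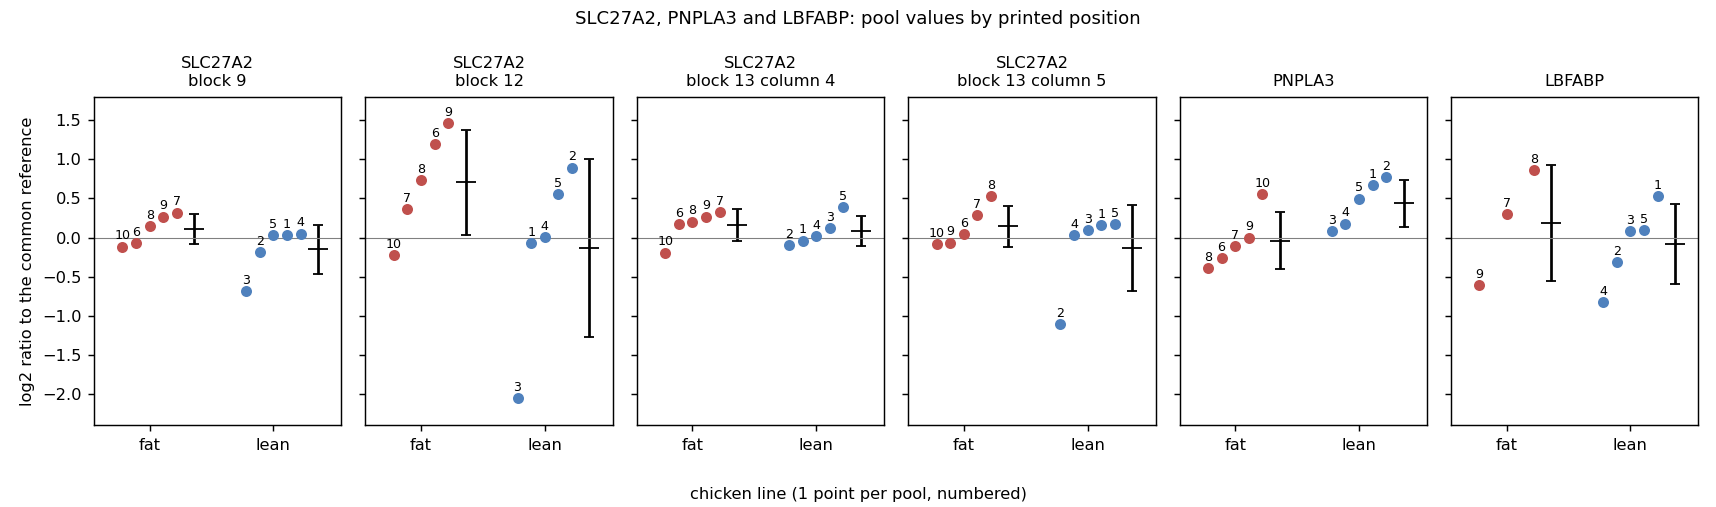
Log2 ratio to the common reference of each pool at the 4 SLC27A2 positions, PNPLA3 and LBFABP, with fat pools in red, lean pools in blue, pool numbers above the points and bars for mean ± SD. Lean pool 3 is lowest at SLC27A2 blocks 9 and 12, lean pool 2 stands apart at block 13 column 5, 4 of 5 fat pools lie below every lean pool at PNPLA3, and LBFABP has 3 fat pools.

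FABP1, the cytosolic carrier, was read by cDNA A in blocks 1 and 6, cDNA B in block 9 and cDNA C in blocks 14 and 16. At block 16 the fat pools were at 0.49, -0.21, -0.58, -0.24 and 0.38, against 0.13, 0.61, 0.40, -0.01 and 1.01 in the lean pools. Fat pools 7, 8 and 9 lay below all lean pools, and fat pools 6 and 10 lay among them. The difference was -0.46 (standard error 0.25, 95% interval -1.03 to 0.10, limma unadjusted p = 0.0980, adjusted p = 0.613), the furthest from 0 of the 5 positions. It ran from -0.59 without pool 6 to -0.32 without pool 5. At block 9 the fat pools were at 0.12, -0.13, -0.44, -0.44 and 0.07, against -0.37, 0.56, 0.37, 0.14 and 0.29 in the lean pools. The fat pools were all below the lean mean, and 1 lean pool, pool 1, stood nearly as low as fat pools 8 and 9. The difference was -0.36 (standard error 0.19, 95% interval -0.79 to 0.07, limma adjusted p = 0.610). It ran from -0.50 without pool 1 to -0.27 without pool 2.

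At block 14 the FABP1 ratios were 0.23, -0.27, -0.33, 0.15 and 0.07 in the fat pools, against -0.35, 0.30, 0.59, 0.27 and 0.44 in the lean pools. The order was much as at block 9, with lean pools 2 to 5 above every fat pool and lean pool 1 the lowest of all. The difference was -0.28 (standard error 0.19, limma adjusted p = 0.656), and ran from -0.43 without pool 1 to -0.20 without pool 3. The cDNA A positions gave smaller differences. At block 1 the fat pools were at 0.80, -0.19, 0.09, 0.0033 and 0.21, against -0.11, 0.54, -0.05, 0.46 and 0.60 in the lean pools, and fat pool 6 was the highest of all. The difference was -0.10 (standard error 0.22, limma adjusted p = 0.882), and ranged from -0.26 without pool 6 to -0.0076 without pool 7. At block 6 the fat pools were at 0.09, -0.22, 0.39, -0.27 and -0.50, against 0.26, -1.02, 0.90, -0.62 and 0.11 in the lean pools, which spanned the whole range of the fat pools. The difference of -0.03 (standard error 0.34, 95% interval -0.78 to 0.72, limma adjusted p = 0.984) had no settled sign, running from -0.27 without pool 2 to 0.22 without pool 3.

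Averaged over its 5 positions, FABP1 was at 0.35, -0.20, -0.17, -0.16 and 0.05 in fat pools 6 to 10, against -0.09, 0.20, 0.44, 0.05 and 0.49 in lean pools 1 to 5. Fat pools 7 to 9 were below every lean pool, and fat pool 6 was above 3 lean pools. The means were -0.03 ± 0.23 in the fat line and 0.22 ± 0.25 in the lean line (SD, n = 5 each). The difference was -0.25 (standard error 0.16, 95% interval -0.61 to 0.11, limma unadjusted p = 0.160, adjusted p = 0.643 over 110 genes). The median over the positions gave -0.38 (limma unadjusted p = 0.0472, adjusted p = 0.600), the smallest unadjusted p of the alternatives. With each pool left out, the mean gave -0.34 without pool 6 to -0.18 without pool 5. The limma unadjusted p was under 0.05 in 0 of these 10 fits. Of all 110 genes, 47.3% had a difference below 0 and, at an unadjusted p under 0.05, 3.64% were higher and 4.55% lower in the fat line.

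**Figure D3:**
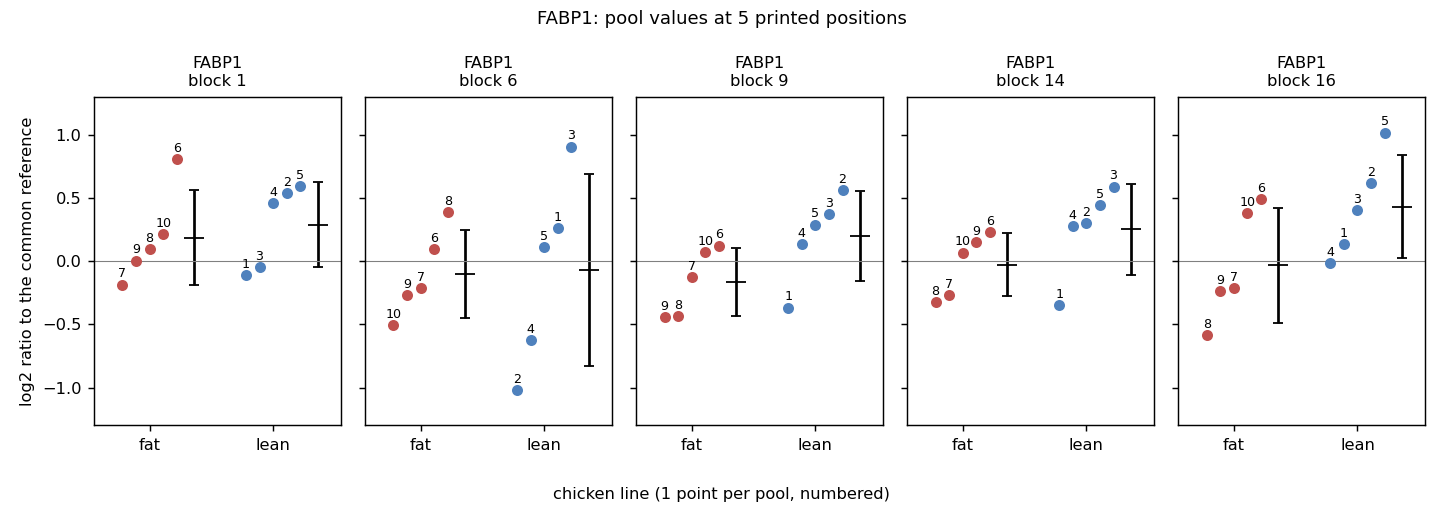
Log2 ratio to the common reference of each pool at the 5 FABP1 positions, with fat pools in red, lean pools in blue, pool numbers above the points and bars for mean ± SD. At blocks 9, 14 and 16 the fat pools lie lower on average, with differences of -0.36, -0.28 and -0.46, while at block 6 the lean pools span the whole range of the fat pools.

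LBFABP, the second binding protein, had values at 23 of its 84 spots and on 10 of 28 arrays. In the fat line 3 arrays had a value, 1 each in pools 7, 8 and 9, and in the lean line 7 arrays did. The fat pools with a value were at 0.30, 0.86 and -0.61, against 0.53, -0.32, 0.08, -0.83 and 0.09 in lean pools 1 to 5. The lines overlapped over most of their range. The difference was 0.27 (standard error 0.39, 95% interval -0.61 to 1.15, limma adjusted p = 0.802), and it ran from -0.07 without pool 8 to 0.67 without pool 9. Per pool, 16.7% ± 20.8 of the LBFABP spots had a value in the fat line and 44.4% ± 33.3 in the lean line (SD, n = 5 each). This did not pass a two-sided exact permutation test over pools (p = 0.151, adjusted p = 0.829 over the 11 positions). The fit used the 8 pools with a value, and pools 6 and 10 had none.

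PNPLA3, the droplet protein, had the smallest p of the members. The fat pools were at -0.26, -0.11, -0.39, -0.0011 and 0.55, against 0.67, 0.77, 0.08, 0.18 and 0.50 in the lean pools. Fat pools 6 to 9 were below every lean pool, and fat pool 10 was above 3 of them. The means were -0.04 ± 0.36 in the fat line and 0.44 ± 0.30 in the lean line (SD, n = 5 each). The difference was -0.48 (standard error 0.20), which is 1.40-fold, and its 95% interval ran from -0.94 to -0.03 on the log2 scale, with a limma unadjusted p = 0.0388 and adjusted p = 0.496, and from 0.196 to 0.978 over the alternatives. A two-sided exact permutation test over pools gave p = 0.0556, where 0.00794 is the smallest value it can give. With each pool left out it lay between -0.63 (without pool 10) and -0.40 (without pool 8), and the limma unadjusted p stayed under 0.05 in 3 of these 10 fits, those without pool 3, 4 or 10.

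Single arrays weighed on the PNPLA3 values. Fat pool 8 had 3 spots averaging 0.59 on its first array and 1 spot at -1.37 on its second, the only array on which PNPLA3 rested on 1 spot. With arrays of at least 2 spots only, the difference was -0.29 (limma unadjusted p = 0.189, adjusted p = 0.559). In lean pool 2 the second array averaged 1.57, with spots between 0.04 and 2.47, while its other arrays averaged 0.26 and 0.48. On first arrays alone, the difference was -0.10 (limma unadjusted p = 0.682, adjusted p = 0.978). On second arrays alone it was farther from 0, at -0.71 (limma unadjusted p = 0.104, adjusted p = 0.466).

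The second comparison asked how far printed positions of a gene agreed. Pearson r over the 10 pools was computed for the 10 pairs of FABP1 positions and the 6 pairs of SLC27A2 positions, with two-sided permutation p-values adjusted over these 16 pairs. FABP1 blocks 9, 14 and 16, which carry cDNAs B and C, went together. Blocks 9 and 14 had r = 0.78 (permutation p = 0.00936, adjusted p = 0.0749) and Spearman rho = 0.83 (permutation p = 0.0046, adjusted p = 0.0450). Blocks 9 and 16 had r = 0.78 (permutation p = 0.00813, adjusted p = 0.0749) and rho = 0.82 (permutation p = 0.00562, adjusted p = 0.0450). Blocks 14 and 16, the same cDNA, had r = 0.68 (permutation p = 0.0309, adjusted p = 0.128) and rho = 0.67. The rank correlation thus passed for 2 pairs and r for none of the 16. Without the 2 pools farthest from the median of the first position, r was 0.87, 0.62 and 0.62 for these pairs, and after subtracting each line's mean it was 0.71, 0.70 and 0.58. By r with block 9, block 16 had rank 1 and block 14 rank 3 among the 231 other positions with values in all pools.

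FABP1 block 1, with cDNA A, had r between 0.52 and 0.61 with blocks 9, 14 and 16. Block 6 carries the same cDNA as block 1 and, over the pools, went with none of the other positions. Its r was -0.35 with block 1 (permutation p = 0.326, adjusted p = 0.483) and between -0.24 and -0.0074 with blocks 9, 14 and 16. A further measure, chosen after seeing the data, was r over the arrays with the mean of the other tested positions of a printing block. Block 6 had r = 0.52 with its 15 such positions (26 arrays, which share pools), where the median over all tested positions was 0.21. The 11 member positions ran from -0.45, at FABP1 block 9, to this value in the same measure, and SLC27A2 block 12 had -0.36. After subtracting the median of each printing block on each array, a setting chosen after seeing the data, the r of block 6 with the other FABP1 positions was still between -0.21 and 0.0080. Over all pairs of tested positions with values in all pools the median r was 0.0045, and over the 48 pairs of positions of one gene, for the 21 other genes with more than 1 such position, it was 0.42. These pairs share arrays and are given as a description. The FABP1 pairs had a median of 0.54 and the SLC27A2 pairs 0.33.

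**Figure D4:**
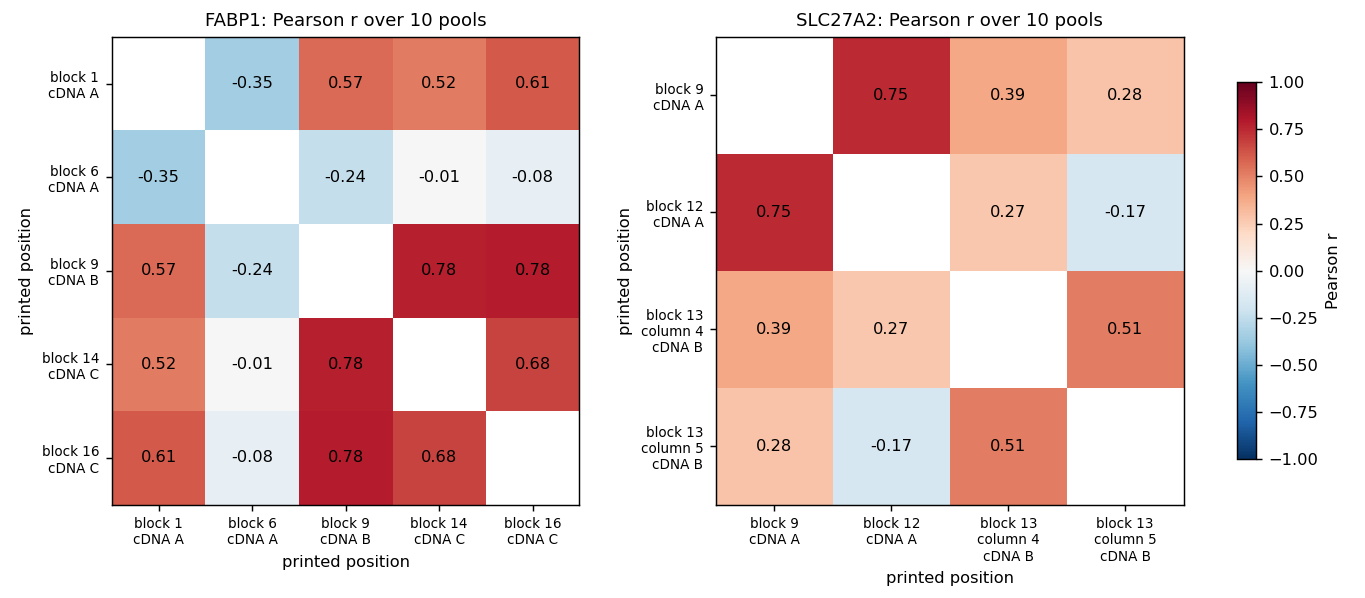
Pearson r over the 10 pools between printed positions of FABP1 (left) and of SLC27A2 (right), with the cDNA of each position named. FABP1 blocks 9, 14 and 16 form pairs of r between 0.68 and 0.78, block 6 has r of at most -0.0074 with every other FABP1 position, and SLC27A2 pairs run from -0.17 to 0.75.

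Among the SLC27A2 positions, blocks 9 and 12 of cDNA A had r = 0.75 (permutation p = 0.0320, adjusted p = 0.128) with rho = 0.35. Without pools 3 and 7, the 2 pools farthest from the block 9 median, r was 0.33. Lean pool 3 was the lowest pool at both positions. The cDNA B positions had r = 0.51 and rho = 0.65 (permutation p = 0.0486 for rho, adjusted p = 0.194). Between cDNAs A and B, r lay between -0.17 and 0.39, so no pair of SLC27A2 positions passed. Whether the line difference itself differed between positions was tested by two-sided exact permutation of the pools on the difference of each pair. The smallest p of the 16 pairs was 0.135, for FABP1 blocks 1 and 16, whose differences lay 0.36 apart, and the smallest adjusted p was 0.741.

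The third comparison set the spread between pools of a line, made from different chickens, against the spread between arrays of a pool. The SD between arrays of a pool was above the SD between pools of a line at 9 of the 11 positions, PNPLA3 among them (0.48 and 0.33), and below it at FABP1 blocks 14 and 16. A pool value is a mean of up to 3 arrays, which lowers the part of its SD that comes from array error. This order therefore does not show that arrays differed more than chickens, and its share over all tested positions was not computed. At LBFABP the SD between arrays rested on pools 2 and 3 only. At FABP1 block 14 the SD between arrays of a pool was 0.20 and the SD between pools of a line 0.31, on the log2 scale. At SLC27A2 block 12 these were 1.43 and 0.94, although the 3 spots within an array differed by an SD of 0.33 only. The medians over all tested positions were 0.32 between spots, 0.38 between arrays and 0.32 between pools. The arrays of fat pool 6 at SLC27A2 block 12 averaged 3.84, 0.77 and -1.04, and those of lean pool 3 averaged -0.05 and -4.05. The arrays of these pools lay farther apart than the spots within any of them, which on the second array of lean pool 3 ran from -4.85 to -2.92. At block 9, which carries the same cDNA, lean pool 3 had its lower array second as well, and without that array, a setting chosen after seeing the data, the block 12 difference was 0.44.

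**Figure D5:**
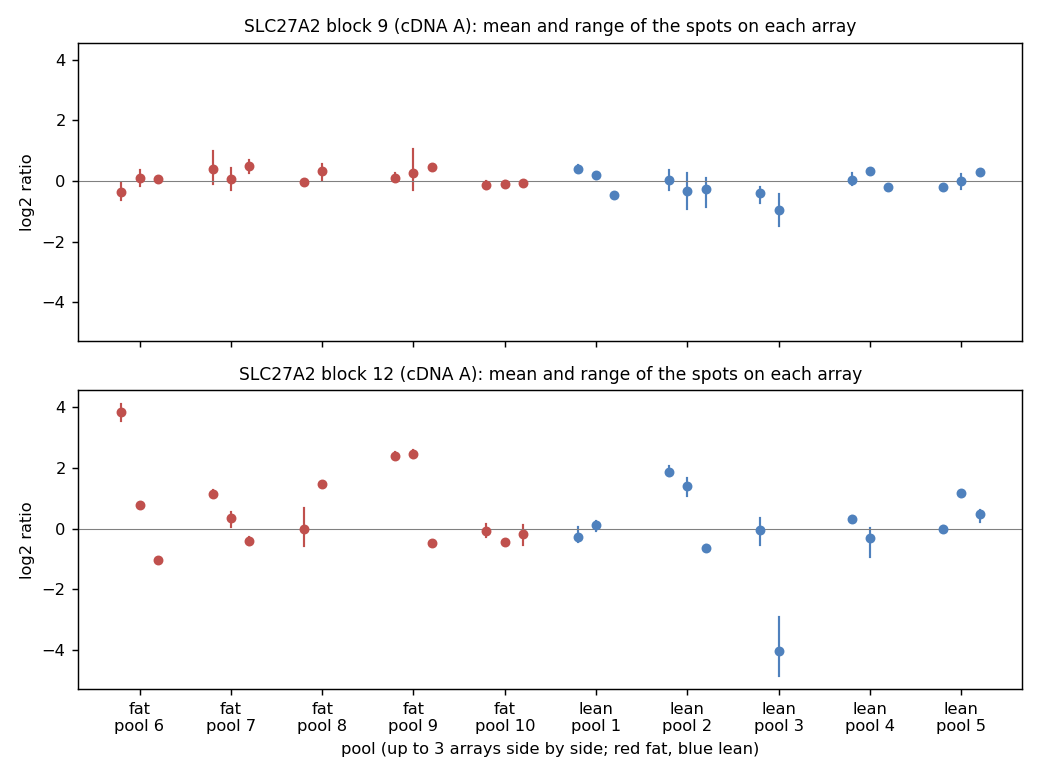
Log2 ratio of SLC27A2 on each array at block 9 (top) and block 12 (bottom), both cDNA A, by pool, with fat pools in red left of lean pools in blue. Points are means of up to 3 spots and bars run from the lowest to the highest spot. At block 12 the arrays of fat pool 6 run from -1.04 to 3.84 while the spots within each array lie close together.

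A limma F test on arrays asked whether pools of a line differed beyond the arrays at the 10 member positions that could be tested. None passed in either line, where 0% of 202 positions passed in the fat line and 0.529% of 189 in the lean line. Before adjustment, p was under 0.05 at 1 member position in the fat line, FABP1 block 16 (limma p = 0.0127, adjusted p = 0.163), where the background was 22.8%. Among lean pools there were 3, FABP1 block 14 (limma p = 0.00473, adjusted p = 0.112), FABP1 block 16 (limma p = 0.0140, adjusted p = 0.190) and SLC27A2 block 13 column 5 (limma p = 0.0400, adjusted p = 0.270), where the background was 15.9%. Within a pool, after subtracting the pool mean, the r between positions of a gene over arrays lay between -0.47 and 0.43 with a median of -0.15, as a description over arrays that share pools. The lowest was that of FABP1 blocks 14 and 16, and the highest that of SLC27A2 block 12 and block 13 column 4. FABP1 blocks 1 and 6 had 0.32 in this measure.

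Other genes of these pathways were few on the array. Of 27 genes listed for uptake, binding and activation, the 3 with values were FABP1, LBFABP and SLC27A2 themselves. Of 38 genes listed for droplets and glycerolipids, 4 had values, with the member PNPLA3 (-0.48) itself among them. With it included, 1 was above 0 and 3 were below, and the median difference was -0.28, against 0.03 over all 110 genes. Of the 4, 1 had an unadjusted p under 0.05, PNPLA3, and none passed, where 8.18% of all genes were under 0.05 and 0% passed. GPAM, which starts glycerolipid synthesis in mitochondria, was at -0.08 and turned without pool 3, 5 or 6. AGPAT4, an acyltransferase of the next step, was at -0.63 in 3 fat and 4 lean pools, at 0.11 without pool 9 and at -1.09 without pool 7. LPIN2, a phosphatidate phosphatase, was at 0.01 and turned without pool 3, 6, 7 or 9.

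Of 13 regulators that bind or respond to fatty acids, 4 had values, all above 0, with a median of 0.23, where 58 of all 110 genes lay above 0. None passed, and 1 of the 4 (against 8.18% of all genes) had an unadjusted p under 0.05, SREBF1, the driver of lipid synthesis genes, at 0.35 (standard error 0.16, limma unadjusted p = 0.0497, adjusted p = 0.607). The 3 positions of SREBF1 differed, at 0.97, 0.37 and 0.02. PPARA, a nuclear receptor that in mammals drives FABP1 and fatty acid oxidation genes, was at 0.69 (standard error 0.57, 4 fat and 5 lean pools), and at 0.38 without pool 3 and 1.13 without pool 2. NR1H3 was at 0.10 and turned without pool 5 or 7, and RXRG was at 0.02 in 3 fat and 5 lean pools and turned without pool 3 or 10. For export in very low density lipoprotein, APOB was at 0.03 and turned without pool 4, 9 or 10, and APOA1 was at 0.43, from 0.14 when pool 7 was dropped to 0.72 when pool 8 was. The liver markers with tested values were APOA1, APOB, AHSG at -0.30 (-0.15 without pool 5) and GC at 0.12 (0.02 without pool 6 and 0.20 without pool 7), of which none had an unadjusted p under 0.05. The 2 positions of GC had opposite signs, at 0.49 and -0.26. ALB was on the array with values in too few pools for a test. A ratio to a reference made of the same livers carries no level, so these markers do not test the tissue. Markers of fat, blood, immune and stromal cells had no named position on the array, and their part in the differences was not tested. AMY1A, the 1 pancreas marker with values, was at -0.10 and turned without pool 8.

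By likeness over the 10 pools, FABP1, SLC27A2 and PNPLA3 were set against 78 other genes, each by its position with the highest r, as a description. LBFABP lacked values in some pools and was left out. MDH2 (r = 0.71), NFYB (0.63) and ORM1 (0.62) were most like FABP1. For SLC27A2 they were RPS6KB1 (0.80), TMED7 (0.79) and MDH2 (0.79), and for PNPLA3 they were ATF4 (0.87), ACAT1 (0.80) and ATP5J2 (0.78). The likeness did not hold at every position of these genes: the 5 positions of MDH2 went down to r = -0.76 with FABP1 and -0.68 with SLC27A2, those of ATF4 to -0.39 with PNPLA3, and the other TMED7 position had r = 0.07 with SLC27A2. Between these members, over the 10 pools, r was 0.23 for FABP1 with PNPLA3, -0.45 for FABP1 with SLC27A2 and -0.44 for SLC27A2 with PNPLA3. The members were read on the same arrays.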

How the data were processed

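Per the labels' protocols, RNA of 4 chickens made up each pool, and 500 ng of poly(A)+ RNA went into each Cy5 or Cy3 labelling. The authors deposited 1 value per spot and array, taken here as a log2 ratio. How background, filtering and normalization were handled is not given in the sources. The labels do not state the log base: base 2 was inferred because the largest value, 14.01, is large for a natural log or log10 ratio. Array medians lay between -0.06 and 0.07. The mean over the 3 spots of a position was taken first, then the mean over arrays of a pool, with missing values left missing. The pool values were fitted with limma 3.58.1 (R 4.3.3, moderated, two-sided) and adjusted by Benjamini-Hochberg with a threshold of 0.05. Exact permutations ran over the 252 splits of 10 pools, and correlations used 100000 resamples. P-values of the line differences on pool values measure the spread between pools, array error included. The F test set pools against the spread between arrays of a pool, and fits with arrays as observations also used that spread. Named genes were the 4 members, all measured genes of 4 pathway lists, and the 3 genes most like each member other than LBFABP. Alternatives covered averaging, filters, normalization, arrays as observations, single arrays and leaving out pools. The members and lists were chosen with earlier results of these data known. Coordinates and sequences are not printed.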

Additional observations from a re-analysis of the deposited data

Results flagged for a closer look

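In each line, each position and each gene mean with at least 4 pools was examined for a pool far from the others, and chance would flag about 1 in 20 of these 25 groups. SLC27A2 averaged over its positions in fat pool 10 stood at -0.15, with the other fat pools between 0.33 and 0.48. SLC27A2 at block 13 column 5 in lean pool 2 stood at -1.10, with the other lean pools between 0.03 and 0.17.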

How the results depend on the processing

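No position was called with pools as replicates, under any averaging, filter or normalization tried or with any pool left out. With arrays as observations, 5 of 297 positions were called when the correlation within pools was estimated. With array numbers as a replicate block, 8 were called (48 at an unadjusted p under 0.05). That fit took arrays of a pool as independent, although they repeat 1 RNA, so its p-values are too small for a comparison of pools. No member was among the positions called by either fit. Fat and lean arrays of the same number had a median r of -0.0080 between deviations from their line means, against 0.0125 for different numbers. By this measure the numbers did not pair fat with lean arrays. Array pairs within a line were not tested. Without pool 8, 18 positions had an unadjusted p under 0.05. FABP1 block 6 turned to 0.078 with the replicate block, 0.031 with the median over spots, 0.21 with the median over arrays, 0.019 over all spots of a pool at once, 0.12 with at least 2 spots per array, 0.051 with pool weights, 0.53 on first arrays and 0.18 without the second array of pool 3. With single pools left out it ran from -0.27 to 0.22, and LBFABP from -0.070 to 0.67. SLC27A2 block 13 was -0.18 at column 5 on second arrays and -0.00089 at column 4 with block medians subtracted. That subtraction brought r of FABP1 blocks 6 and 14 to 0.0080. Spearman rho passed for FABP1 blocks 9 and 14 (0.83) and 9 and 16 (0.82), where r did not. The causes of these changes between settings were not tested. The number of pools and, for LBFABP, the missing spots limit the precision.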
